A study of Mus musculus with 15 samples.

Results

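Primary lung fibroblasts of wild-type BALB/cJ mice, given IL-33 together with IL-17A, were set against the same kind of culture left untreated. The comparison rests on 3 libraries labelled IL-33/17A and 3 labelled untreated, which are 6 of the 15 libraries of the series. All 18078 genes of the deposited files were considered, and 13280 genes reached 1 TPM in at least 3 of these 6 libraries and were tested. TPM is a read count divided by a length, here the gene's span, and scaled so that each library adds up to the same total. The span includes introns, so TPM levels of different genes, summed TPM and shares of TPM also depend on span. The label of every library gives the sampling time as 20 hours. Another group, IL-33 without IL-17A (3 libraries), was used for a further comparison, and no group given IL-17A without IL-33 was analysed here. All groups share strain, genotype and time. The labels give neither animals, passages, doses nor culture dates, so a p-value here reflects no more than the scatter among libraries, and that scatter may be technical.

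IL-33, a relative of IL-1, is released as an alarm signal by damaged barrier cells and signals through its receptor chain ST2 (gene Il1rl1) and MyD88 to the transcription factor NF-kB. IL-17A is the main cytokine of type 3 immunity. It binds Il17ra and Il17rc, recruits the adaptor Act1 (Traf3ip2), and is known for prolonging the life of short-lived cytokine mRNAs and for raising the NF-kB cofactor Nfkbiz and C/EBP factors in stromal cells. Its known stromal targets are the chemokines and growth factors that call and mature neutrophils, together with antimicrobial and acute-phase proteins.

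Depth, recovered from the steps between low values, was 11.8 to 15.1 M reads in IL-33/17A libraries and 10.6 to 12.1 M reads in untreated ones. The 13 mitochondrially encoded protein genes took 5.23%, 3.74% and 3.67% of TPM in IL-33/17A replicates 1, 2 and 3, against 5.78% to 6.14% in the untreated libraries. IL-33/17A replicates 2 and 3 thus fell below 4.5%, as did 4 libraries of groups not compared here, and no untreated and no IL-33 library did. These 6 libraries are called the low mitochondrial set. Results are therefore also given with IL-33/17A replicate 1 as the only library of its group, whose spread is then taken from the other groups. Of reads, the 13 mitochondrial genes took 0.579%, 0.435% and 0.423% in IL-33/17A replicates 1, 2 and 3. In untreated libraries they took 0.610% to 0.656% of reads. Of the 14 fibroblast markers, all were tested, and they added up to 12611 to 14099.9 TPM in IL-33/17A libraries and 15779.9 to 17191 TPM in untreated ones. Macrophage transcripts were abundant in both groups. Lyz2, the lysozyme of myeloid cells, had 9065, 10082 and 8869.6 TPM in IL-33/17A libraries and 10102, 10467 and 10329 TPM in untreated libraries, and the 14 macrophage markers added up to 19572 to 20736 TPM and 20111 to 20504 TPM. In such bulk cultures fewer cells of a type and less RNA per cell cannot be told apart.

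Of the 13280 genes tested, 1454 were called higher in IL-33/17A than in untreated libraries (10.9%) and 3771 were called lower (28.4%), by limma on log2(TPM + 1) at an adjusted p under 0.05. A number after rose by or fell by is a log2 difference on this scale. Large rises outnumbered large falls: 273 genes rose and 219 fell by 2-fold or more on this scale, and 31 rose but 1 fell by 8-fold or more. Most calls were small, since 934 of the rises and 3109 of the falls were under 1.5-fold. The median change of all tested genes was -0.10 (log2), and with median-ratio scaling, which brings it to 0.00, the split was 2351 higher and 2288 lower. Small falls are therefore read against that median throughout, and counts of list members against the shares of 10.9% and 28.4%. These shares do not apply to counts with replicate 1 alone, where smaller shares of all tested genes were called in both directions. Such counts are to be read against the totals of that fit, which are given in the closing section. By the filter, 85 genes were tested through IL-33/17A libraries alone, of which 77 were called higher, and 136 through untreated libraries alone, of which 112 were called lower. The genes that rose 8-fold or more held 2.07% to 2.18% of TPM in IL-33/17A libraries, against 0.0605% to 0.0649% in untreated libraries.

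**Figure D1:**
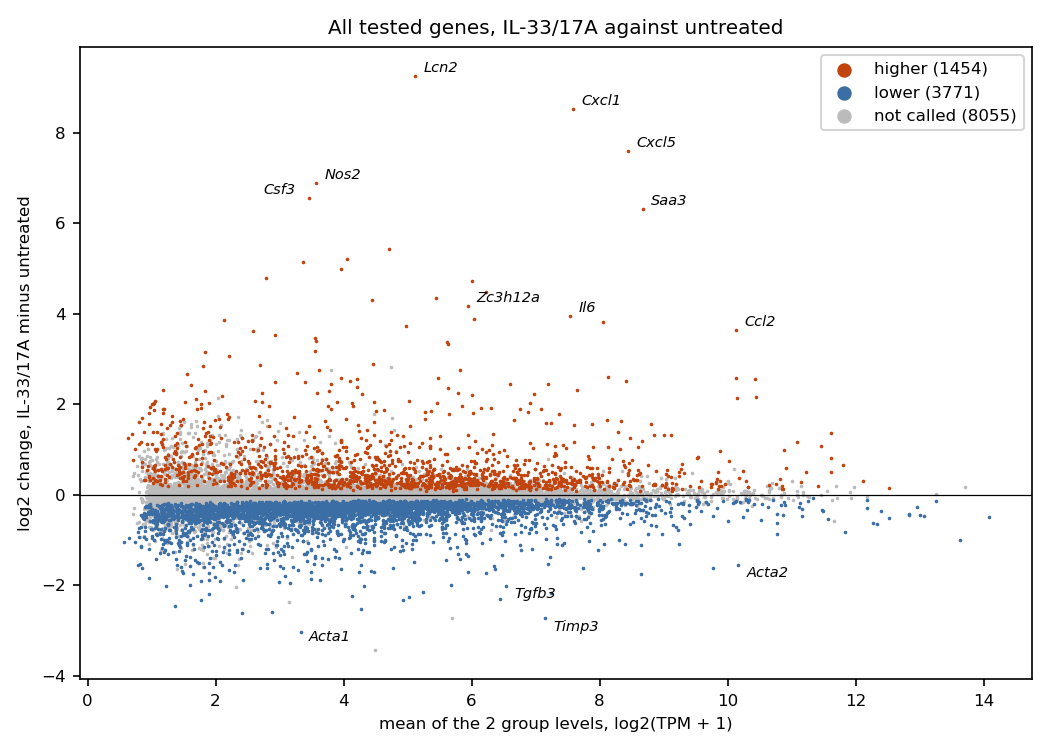
Change of each of the 13280 tested genes (y axis, log2 change, IL-33/17A minus untreated) against the mean of the group levels (x axis, log2(TPM + 1)). Points are genes, coloured by limma call; the 1454 higher genes reach a change of 9.26 for Lcn2, and the lower genes form a broad band of small falls.

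The share of genes called lower increased with gene span, the length by which the deposited TPM was divided. Tested genes were ordered by span and put into 5 bins of 2656 genes. In the bin with the shortest spans (171 to 4397 bases) 10.2% were called lower and 10.4% higher, and in the bin with the longest (52133 to 969870 bases) 48.4% were called lower and 8.28% higher. The median change in the longest bin was -0.10 for IL-33/17A replicate 1, -0.25 for replicate 2 and -0.22 for replicate 3, each against the untreated mean. The span trend was thus present in all 3 libraries and was largest in those with a low mitochondrial share. Its part in the small falls was not tested. Of the genes called at 2-fold or more, 227 of 273 rises and 192 of 219 falls were also called with replicate 1 alone against the untreated libraries.

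**Figure D2:**
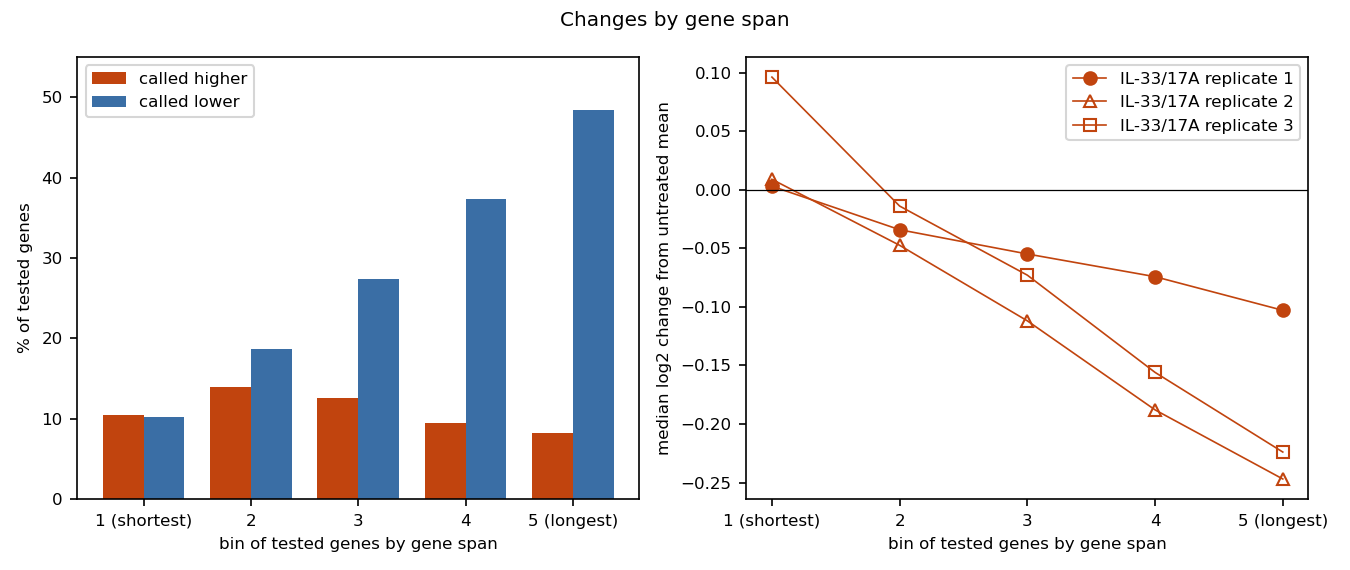
Left, percent of tested genes called higher or lower in each of 5 bins by span. Right, median log2 change of each IL-33/17A library from the untreated mean in the same bins; the share called lower is 10.2% in the shortest bin and 48.4% in the longest, and all 3 lines slope down.

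The 15 largest rises among called protein-coding genes were Lcn2, Cxcl1, Cxcl5, Nos2, Csf3, Saa3, Cxcl2, Cxcl3, Il1a, Mmp9, Camp, Lif, Penk, Hp and Serpinb2. The 15 largest falls were Acta1, Timp3, Aqp5, Ogn, Fhl1, H2ac10, Ankrd1, Mcam, Gadd45g, Cav1, Tgfb3, Des, Cx3cr1, Aspn and Angpt4. In all 30 genes the libraries of the groups did not overlap, as in 6303 of all 13280 tested genes. The 30 genes were picked for their large changes, so this is no separate support. The rises span 4.31 to 9.26 and the falls -1.93 to -3.04 on the log2 scale. The histone gene H2ac10 has near-identical copies and only 0 to 3 reads per library, so its value is uncertain. It was the one of the 30 genes that lost its call in any setting, among them replicate 1 alone and leaving out IL-33/17A replicate 1 or 2 or untreated replicate 3.

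**Figure D3:**
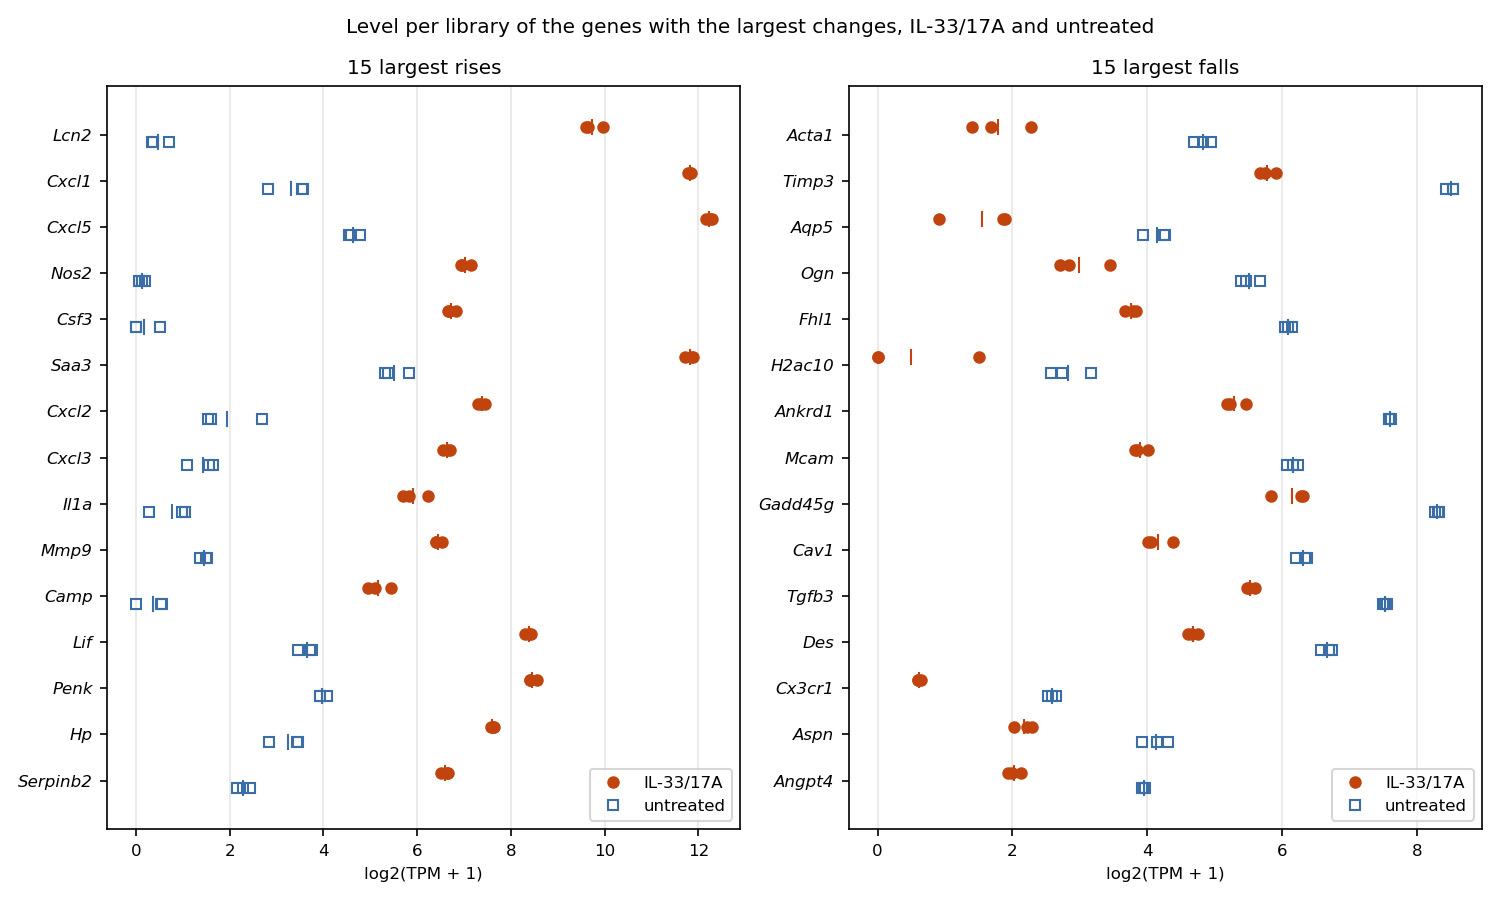
Level per library, log2(TPM + 1), of the 15 genes with the largest rise (left) and the 15 with the largest fall (right). Filled circles are the 3 IL-33/17A libraries, open squares the 3 untreated libraries and short vertical bars the group means. The symbols of the groups do not overlap in any of the 30 genes, nor do the groups in 6303 of all 13280 tested genes.

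Several of the 30 genes stand outside the groups described further on. Penk, the precursor of enkephalin opioid peptides, had 337, 341 and 377 TPM in IL-33/17A libraries and 14.3, 15.9 and 14.3 TPM in untreated libraries. Cav1, the coat protein of caveolae, had 19.9, 15.2 and 15.6 TPM in IL-33/17A libraries, against 73.2, 79.9 and 82.1 TPM in untreated libraries. The water channel Aqp5 stood at 2.64, 0.876 and 2.71 TPM in IL-33/17A libraries and 18.2, 14.3 and 18.1 TPM in untreated ones. The adjusted p of these 3 genes were 3.9e-13, 2.5e-09 and 1.5e-06 (limma). They were picked for their large changes, so this is no separate support. Aqp5 rests on 11, 4 and 15 reads in IL-33/17A libraries, against 74, 51 and 69 reads in untreated ones. Fhl1, a LIM-domain protein of muscle, and Gadd45g, a stress-induced growth arrest gene, fell by 2.33 and 2.16. Angpt4, a ligand of the vascular receptor Tie2, fell by 1.93. Exons of Aspn, Cx3cr1, Des, H2ac10, Il1a, Mcam, Penk, Tgfb3 and Timp3 overlap an annotated gene on the opposite strand, and those of Serpinb2 overlap Serpinb10 on the same strand. Whether reads were assigned by strand is not given in the sources used here, so these genes and their partners may share reads.

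Factors that attract, release and keep alive neutrophils made up the group with the largest rises. Of the 8 tested genes of this list 7 rose, none fell, and their median change was 5.32, against -0.10 for all tested genes. With IL-33/17A replicate 1 alone 7 were called too. Csf2 and Csf3 were under 1 TPM in every untreated library and passed the filter through IL-33/17A libraries alone, which fixed their direction, and of the other 6 members 5 rose. Cxcl1 (chromosome 5, 90891241 to 90893115, plus strand), a ligand of the neutrophil receptor Cxcr2, had 3699, 3519.8 and 3644 TPM in IL-33/17A libraries and 10.6, 6.05 and 10.8 TPM in untreated ones. Cxcl5, another ligand of this receptor, reached 4615, 4878 and 4984 TPM in IL-33/17A libraries, against 22.4, 26.5 and 22.99 TPM in untreated libraries. Both mRNAs were at low levels in untreated cultures and among the chemokine mRNAs with the highest TPM after both cytokines. Both genes have short spans, which raises their TPM relative to long genes. The changes were 8.52 ± 0.15 (SE, adjusted p = 5.9e-13, limma) for Cxcl1 and 7.60 ± 0.07 (SE, adjusted p = 1.3e-15, limma) for Cxcl5. The related Cxcl2 and Cxcl3 had means of 165 ± 8.83 and 98.7 ± 5.15 TPM (SD, n = 3) in IL-33/17A libraries, against 3.15 ± 2.02 and 1.74 ± 0.528 TPM in untreated ones.

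Csf3 (chromosome 11, 98701263 to 98703629, plus strand) encodes G-CSF, the growth factor that drives neutrophil production in bone marrow. It stood at 113, 100.3 and 101 TPM in the IL-33/17A libraries and at 0.420, 0 and 0 TPM in the untreated libraries. In reads this was 274, 268 and 327 against 1, 0 and 0, so the untreated level rests on 1 read in all. Csf2, which encodes the myeloid growth factor GM-CSF, rested on 1 untreated read too and had 16.2, 16.6 and 13.7 TPM in IL-33/17A libraries. Pf4, a platelet and myeloid chemokine, had the highest untreated TPM of the list. It rose to 689 ± 90.5 TPM in IL-33/17A libraries, against 113 ± 16.3 TPM in untreated libraries (SD, n = 3 each). The remaining member, Ppbp, was not called: it had 8.81, 8.02 and 4.25 TPM in IL-33/17A libraries and 5.78, 3.67 and 2.06 TPM in untreated ones, and these ranges overlap.

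Cxcl1, Cxcl2 and Cxcl3 lie in 1 chemokine cluster on chromosome 5 and all rose, and their promoters are shown to let their shared letters be seen. The sequences are those of RefSeq (build GRCm38.p6), 250 bases before to 50 after the annotated start, 5′ to 3′ on the gene's strand. They lie at chr5:90890995-90891294, plus strand for Cxcl1, chr5:90903649-90903948, plus strand for Cxcl2 and chr5:90785851-90786150, plus strand for Cxcl3. Capitals mark matches to the NF-kB consensus, a motif of 10 letters, on either strand.
Cxcl1: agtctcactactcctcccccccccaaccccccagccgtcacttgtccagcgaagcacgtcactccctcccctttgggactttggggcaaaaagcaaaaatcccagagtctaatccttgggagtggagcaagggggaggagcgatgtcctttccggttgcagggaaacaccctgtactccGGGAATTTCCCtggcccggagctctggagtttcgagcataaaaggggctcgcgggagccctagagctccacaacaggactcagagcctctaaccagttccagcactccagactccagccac
Cxcl2: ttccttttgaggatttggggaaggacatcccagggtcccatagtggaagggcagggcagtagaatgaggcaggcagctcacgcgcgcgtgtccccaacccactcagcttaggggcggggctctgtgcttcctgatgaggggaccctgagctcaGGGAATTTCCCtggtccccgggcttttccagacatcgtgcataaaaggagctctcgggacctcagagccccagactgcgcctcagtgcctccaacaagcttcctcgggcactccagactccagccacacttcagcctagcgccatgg
Cxcl3: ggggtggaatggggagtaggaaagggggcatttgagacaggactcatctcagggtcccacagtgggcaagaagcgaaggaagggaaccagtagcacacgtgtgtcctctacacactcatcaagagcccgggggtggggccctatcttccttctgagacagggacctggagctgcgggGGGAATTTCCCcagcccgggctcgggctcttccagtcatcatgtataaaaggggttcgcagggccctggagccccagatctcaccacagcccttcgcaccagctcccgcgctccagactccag
All 3 hold the same run of GGGAATTTCCC, in which a match on each strand overlaps the other, beginning 71 bases before the start in Cxcl1, 97 in Cxcl2 and 73 in Cxcl3. Of all 32851 promoters of this length in the table, 8.46% hold a match, and of promoters of tested genes 10.7%. Of the NF-kB list described further on, 11 of 20 promoters (55%) hold one. In the neutrophil list 3 of 6 promoters do, and these are the 3 printed. Of contractile genes, which fell, 3 of 13 promoters (23.1%) hold one. No promoter of Cxcl5 or Csf3 was available. A match is a description of these letters and not a measured site.

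Acute-phase and antimicrobial genes were mostly higher: of 12 tested, 10 were called higher and none lower, with a median of 2.55. With replicate 1 alone 10 were called. Of these, Steap4, Lcn2, Saa1 and Saa2 were under 1 TPM in every untreated library and passed the filter through IL-33/17A libraries alone, which fixed their direction, and of the other 8 members 6 were higher. Lcn2 (chromosome 2, 32384633 to 32388252, minus strand), the lipocalin that withholds iron from bacteria by binding their siderophores, had 1004, 771 and 799 TPM in IL-33/17A libraries and 0.274, 0.626 and 0.294 TPM in untreated libraries. The untreated values rest on 1, 2 and 1 reads, against 3737, 3151 and 3962 reads in IL-33/17A libraries. Its change of 9.26 ± 0.10 (SE, adjusted p = 5.5e-15, limma) was the largest of all tested genes. Saa3 (chromosome 7, 46711998 to 46715700, minus strand), a serum amyloid A made outside the liver, stood at 3387, 3785 and 3661 TPM in IL-33/17A libraries and 38.9, 40.4 and 55.7 TPM in untreated ones. Saa1 and Saa2, the liver-type amyloids, were listed at 0 in all untreated libraries and had 2.35, 3.92 and 3.53 TPM and 2.31, 2.46 and 1.45 TPM in IL-33/17A libraries. These 2 genes are near-identical copies, and how reads were shared between them is not known. Saa2 was not called with replicate 1 alone.

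The promoters of Lcn2 and Saa3 are given from the same table, with matches on either strand to the C/EBP motif TTGCNNAA in capitals, a motif held by 10.8% of all promoters. They lie at chr2:32387690-32387989, minus strand for Lcn2 and chr7:46715627-46715926, minus strand for Saa3. Neither of them holds a match to the NF-kB consensus as it was searched, and the C/EBP motif was marked in them for that reason. The C/EBP motif is held by 8.41% of promoters of tested genes.
Lcn2: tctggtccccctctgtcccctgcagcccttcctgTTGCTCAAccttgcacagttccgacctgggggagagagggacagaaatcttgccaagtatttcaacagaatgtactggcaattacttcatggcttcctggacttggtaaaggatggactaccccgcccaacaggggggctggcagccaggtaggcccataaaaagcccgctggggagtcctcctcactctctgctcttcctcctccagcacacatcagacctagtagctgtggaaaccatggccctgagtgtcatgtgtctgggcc
Saa3: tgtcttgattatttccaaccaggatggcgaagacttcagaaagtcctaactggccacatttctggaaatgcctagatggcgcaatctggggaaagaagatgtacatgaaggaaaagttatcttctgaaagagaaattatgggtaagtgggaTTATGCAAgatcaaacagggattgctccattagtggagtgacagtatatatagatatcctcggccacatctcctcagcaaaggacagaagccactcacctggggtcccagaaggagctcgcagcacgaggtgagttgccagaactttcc
Each has 1 match, in different places: it begins 216 bases before the start in Lcn2 and 99 before it in Saa3.

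Most of the other defence genes named here were also higher. Hp is a member of the list counted above, and Camp is not. Camp, the cathelicidin antimicrobial peptide, had 29.99, 33.2 and 42.4 TPM in IL-33/17A libraries and 0.444, 0 and 0.475 TPM in untreated libraries, where it rests on 1, 0 and 1 reads. Camp passed the filter through IL-33/17A libraries alone, which fixed its direction. Hp, haptoglobin, averaged 194 ± 4.28 TPM in IL-33/17A and 8.66 ± 2.16 TPM in untreated libraries (SD, n = 3 each). S100a8, a subunit of calprotectin, Slpi, an inhibitor of leukocyte proteases, and Ptx3, a soluble pattern receptor, changed by 2.59 ± 0.13, 2.50 ± 0.12 and 1.60 ± 0.06 (SE). Serpina3g rose by 3.38, but it has near-identical neighbours in its cluster and its value is uncertain. Serpina3n and Steap1 were not called, with changes of 0.19 ± 0.14 and 0.14 ± 0.08 (SE), but Serpina3n was called higher with a term for the low mitochondrial set (0.47) and with replicate 1 alone (0.63), and Steap1 with median-ratio scaling (0.25) and with voom, a test of the read counts recovered from TPM (0.25).

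Most called genes of nitric oxide and arginine metabolism rose. Of 13 tested, 7 were called higher and 3 lower, median 0.70, and the same counts held with replicate 1 alone. Nos2 (chromosome 11, 78920787 to 78960254, plus strand), the inducible nitric oxide synthase, had 142, 123 and 122 TPM in IL-33/17A libraries and 0.0503, 0.0862 and 0.135 TPM in untreated ones. Over its long span that is 5744, 5461 and 6590 reads against 2, 3 and 5 reads, and the change was 6.89 ± 0.07 (SE, adjusted p = 1.8e-15, limma). Nos2 passed the filter through IL-33/17A libraries alone, which fixed its direction. Of the other 12 members 6 were higher and 3 lower, median 0.43. Arg1, the arginase that competes for the same substrate, averaged 809.9 ± 66.0 TPM in IL-33/17A and 141 ± 4.51 TPM in untreated libraries (SD, n = 3 each). The arginine importer Slc7a2 rose by 2.38, and Ass1, which regenerates arginine from citrulline, by 1.87. Gch1, which makes a cofactor of Nos2, rose by 0.70, and Odc1, the first enzyme of polyamine synthesis, by 1.62. The other importer Slc7a1 fell by 0.67, and Ddah1 and Ddah2, which clear inhibitors of nitric oxide synthase, fell by 0.47 and 0.42.

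Chemokines for monocytes and eosinophils rose too, 11 of 12 tested, with none lower and a median of 1.59. With replicate 1 alone 8 were called. Ccl2, the main monocyte attractant, had 3377, 4301 and 4231 TPM in IL-33/17A libraries and 331, 302 and 313 TPM in untreated libraries. Ccl7 and Ccl6, further ligands for myeloid cells, averaged 2936 ± 102 and 2759 ± 122 TPM in IL-33/17A libraries, against 656 ± 115 and 459 ± 4.39 TPM in untreated libraries (SD, n = 3 each). Ccl11, the eosinophil attractant eotaxin, reached 122, 102 and 113 TPM in IL-33/17A libraries, against 5.998, 8.84 and 8.07 TPM in untreated ones. These 4 mRNAs rose by 2.17 to 3.73 on the log2 scale. Cx3cl1, the ligand of Cx3cr1, rose by 1.13, while Cx3cr1 itself, a receptor of macrophages, fell by 1.98. Cx3cr1 was under 1 TPM in every IL-33/17A library and passed the filter through untreated libraries alone, which fixed its direction. Among lymphocyte-directed chemokines Ccl20 rose by 3.52 and Cxcl16 by 0.32, Cxcl12 fell by 0.17, and Cxcl10 was not called (0.34 ± 0.27, SE), but was without untreated replicate 2 (0.66). The Cxcl12 fall was not called under median-ratio scaling.

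Cytokines and growth factors that act on macrophages moved in both directions. Of 14 tested, 9 rose and 4 fell (8 and 4 with replicate 1 alone), median 0.35. Il1a, an alarmin of the IL-1 family, had 73.7, 55.5 and 51.3 TPM in IL-33/17A libraries and 1.05, 0.985 and 0.205 TPM in untreated libraries. Il1b rose by 3.46, and its natural antagonist Il1rn by 0.78. Tslp, an epithelial and stromal cytokine of type 2 immunity, rose by 1.80, and Tnfsf11, the osteoclast factor RANKL, by 2.03. Tnf was not called, with 19.6, 19.2 and 20.01 TPM in IL-33/17A and 15.9, 22.4 and 16.2 TPM in untreated libraries. Csf1, the growth factor on which macrophages depend, fell: it had 342, 325 and 338 TPM in IL-33/17A libraries and 466, 479.5 and 482 TPM in untreated libraries, a change of -0.51 ± 0.03 (SE). The colony-stimulating factors thus divided, Csf2 and Csf3 higher and Csf1 lower. Gas6 and Pros1, bridging ligands for the uptake of dying cells by macrophages, fell by 0.63 and 0.40, and Spp1, osteopontin, by 0.27.

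Ligands of the IL-6 family rose, while the shared receptor chain fell. Of the 14 tested members of this pathway, 8 were higher and 4 lower, with a median of 0.77 (7 and 2 with replicate 1 alone). Il6 itself had 775, 722 and 699 TPM in IL-33/17A libraries and 46.1, 44.6 and 48.9 TPM in untreated ones. Lif stood at 315, 333 and 346 TPM in IL-33/17A libraries, against 12.1, 10.01 and 12.4 TPM in untreated libraries. Osm rose by 2.55, Il11 by 1.92 and Clcf1 by 1.15, so that these 5 ligands all rose by more than 2-fold. Il6st, the gp130 chain through which all of them signal, was lower, at 123, 109 and 111 TPM in IL-33/17A libraries and 220.2, 218 and 231 TPM in untreated libraries. The specific chains Il6ra and Lifr fell by 0.40 and 0.43, and Osmr was not called, though it was called higher with a term for the low mitochondrial set (0.40) and with replicate 1 alone (0.43). Socs3 and Socs1, feedback inhibitors of this signalling, rose by 1.27 and 1.07. Of this list, 1 member passed the filter through untreated libraries alone, which fixed its direction. Of the other 13 members 8 were higher and 3 lower. Lifr and Socs1 were not called with replicate 1 alone.

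The receptor chains and adaptors of the applied cytokines changed by less than these targets, while the mRNA of IL-33 itself rose. Il33 had 30.04, 23.6 and 21.8 TPM in IL-33/17A libraries and 4.66, 4.39 and 4.30 TPM in untreated libraries, and its receptor Il1rl1 had 87.6, 78.1 and 87.8 TPM in IL-33/17A and 49.0, 50.4 and 55.4 TPM in untreated libraries. Il1rap, the second receptor chain, and Irak3, an inhibitor of this pathway, rose by 0.44 and 0.43. Il17ra and Il17rc were not called, at 0.04 ± 0.06 and -0.09 ± 0.09 (SE), and the adaptor Traf3ip2 rose by 0.42. Of 12 tested genes of the IL-33 pathway 4 were higher and 4 lower, and of 9 of the IL-17 pathway 3 were higher and 2 lower, beside shares of 10.9% higher and 28.4% lower over all tested genes. With replicate 1 alone these counts were 4 and 0 for the IL-33 pathway and 1 and 0 for the IL-17 pathway.

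NF-kB genes rose without exception among those called: 14 of 20 tested were higher, none was lower, and the median was 0.74 (13 with replicate 1 alone). The cofactor Nfkbiz, which IL-17A is known to induce and which is needed for genes such as Lcn2, had 164, 152 and 156 TPM in IL-33/17A libraries and 14.6, 14.5 and 14.6 TPM in untreated libraries. Nfkbia, the inhibitor that ends NF-kB signalling, rose by 1.65, and Tnfaip3 (A20) by 1.22. The subunits Nfkb2, Relb and Nfkb1 rose by 0.89, 0.75 and 0.58, whereas Rela and Rel were not called (-0.06 ± 0.07 and -0.05 ± 0.09, SE). C/EBP and AP-1 genes were higher in 12 of 17 and lower in 2 (9 and 2 with replicate 1 alone). Cebpd, Cebpb and Fosl1 rose by 1.33, 1.18 and 2.03, and Ier3, an early response gene that protects from cell death, had 3278, 3288 and 3532 TPM in IL-33/17A libraries and 585, 561 and 555 TPM in untreated libraries. The 2 that fell, Atf3 and Ddit3, are factors of the stress response. With replicate 1 alone Cebpb was not called.

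Among 12 tested regulators of cytokine mRNA decay, 1 stood apart. Zc3h12a (chromosome 4, 125118423 to 125127840, minus strand) encodes Regnase-1, the RNase that degrades Il6, Nfkbiz and other IL-17 target mRNAs. It had 266, 251 and 264 TPM in IL-33/17A libraries and 14.7, 13.2 and 12.8 TPM in untreated libraries, a change of 4.17 ± 0.05 (SE, adjusted p = 1.7e-14, limma). Zfp36l1, a destabilizer of AU-rich mRNAs, rose by 0.44. Zfp36, tristetraprolin, was not called at 0.09 ± 0.10 (SE). Rc3h1 and Rc3h2, the Roquin proteins that act on targets overlapping with those of Regnase-1, fell by 0.40 and 0.64. The list as a whole moved both ways, 3 higher and 4 lower, median 0.01 (2 and 3 with replicate 1 alone).

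The enzymes of prostaglandin synthesis named here rose. Ptgs2, the inducible cyclooxygenase COX-2, had 2536, 2285 and 2293 TPM in IL-33/17A libraries and 535, 534 and 549 TPM in untreated ones. Ptges, the terminal synthase, had 109.9, 112 and 112 TPM in IL-33/17A and 21.1, 20.7 and 21.05 TPM in untreated libraries, and Pla2g4a, which frees arachidonic acid, rose by 0.84. Hpgd, the prostaglandin dehydrogenase, fell by 1.21 and was low in both groups. Of the 17 tested eicosanoid genes 8 were higher and 3 lower, median 0.20. Among them 1 passed the filter through untreated libraries alone, which fixed its direction. Of the other 16, 8 were higher and 2 lower, median 0.27. The leukotriene genes Alox5 and Alox5ap were not called, though Alox5ap was higher with median-ratio scaling and with voom (0.17 in both). Complement genes were 6 higher and 3 lower of 12. Cfb and Cfp, which build and stabilize the alternative pathway convertase, rose by 2.69 and 1.56 and C3 by 1.31.

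Genes of iron, zinc and metal binding were 8 higher and 2 lower of 12, median 0.49 (5 and 1 with replicate 1 alone). The metallothioneins Mt1 and Mt2 averaged 4167 ± 488 and 5062 ± 403 TPM in IL-33/17A libraries, against 2343 ± 98.0 and 1955 ± 141 TPM in untreated ones (SD, n = 3). Slc39a14, a zinc and iron importer induced by IL-6, rose by 1.02 with libraries between 100.03 and 101 TPM in IL-33/17A and between 48.6 and 49.2 TPM in untreated cultures. Adhesion molecules divided: Vcam1 and Icam1, which hold leukocytes, rose by 1.16 and 0.29, and Mcam and Ncam1 fell by 2.26 and 0.81. Selp, which holds leukocytes too, rose by 1.55 on this scale and by 2.68 with voom. Icam1 was not called with replicate 1 alone. Of 9 adhesion genes tested 4 were higher and 4 lower. Among them 1 passed the filter through IL-33/17A libraries alone, which fixed its direction, and of the other 8, 3 were higher and 4 lower.

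Several secreted proteases rose while an inhibitor fell. Of 12 metalloproteinases tested 7 were higher and 4 lower, median 0.81 (7 and 3 with replicate 1 alone). Mmp3, stromelysin-1, had 1022, 983 and 970.1 TPM in IL-33/17A libraries and 73.0, 62.5 and 72.4 TPM in untreated libraries. Mmp9, gelatinase B, stood at 90.8, 83.7 and 83.6 TPM in IL-33/17A libraries, against 1.84, 1.58 and 1.83 TPM in untreated libraries. Mmp10 and Mmp13, a stromelysin and an interstitial collagenase, rose by 3.89 and 2.46. The membrane-bound Mmp14 and Mmp17 fell by 0.39 and 1.28, and Mmp2 was not called, though it was higher with median-ratio scaling and with voom (0.21 in both). Timp3 (chromosome 10, 86300372 to 86349506, plus strand), an inhibitor that stays bound to matrix, had 59.3, 50.1 and 52.6 TPM in IL-33/17A libraries and 344, 370.2 and 372 TPM in untreated libraries, a change of -2.72 ± 0.06 (SE, adjusted p = 3.4e-12, limma). Timp2 fell by 0.42, but the soluble Timp1 rose, with 2248, 3026 and 2742 TPM in IL-33/17A libraries and 1466, 1406 and 1125 TPM in untreated libraries. The partner of Timp3 on the opposite strand is Syn3.

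The list of TIMP and ADAMTS genes, the second of which encode proteases of proteoglycans and procollagen, was 8 lower and 4 higher of 12, median -0.37. Among them 1 passed the filter through untreated libraries alone, which fixed its direction. Of the other 11, 7 were lower and 4 higher. Adamts4, an aggrecanase, had the largest rise, with 147, 154 and 156 TPM in IL-33/17A libraries and 39.5, 40.6 and 38.6 TPM in untreated libraries. Its relative Adamts5 had 25.2, 23.8 and 23.8 TPM in IL-33/17A and 46.5, 46.7 and 46.7 TPM in untreated libraries, so these 2 aggrecanases moved in opposite directions. In the plasminogen system Serpinb2, a plasminogen activator inhibitor of leukocytes and stressed cells, rose by 4.31. The activator Plau rose by 0.83 and the activator Plat fell by 0.64.

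Contractile genes fell as a group. All 15 tested members were lower, with a median of -1.52 against -0.10 for all tested genes, and all 15 were also called with replicate 1 alone and under median-ratio scaling. Acta2, the smooth muscle actin that marks myofibroblasts, had 724, 668 and 626 TPM in IL-33/17A libraries and 1955, 1993 and 1915 TPM in untreated libraries (-1.54 ± 0.04, SE, adjusted p = 5.6e-11, limma). Cnn1, calponin, had 229, 215 and 208 TPM in IL-33/17A libraries, against 756, 740.2 and 710.4 TPM in untreated libraries. Tagln, transgelin, was the member with the highest TPM. It had 1221, 1364 and 1304 TPM in IL-33/17A and 2336, 2356 and 2384 TPM in untreated libraries. Myh11 and Mylk, the smooth muscle myosin and its kinase, fell by 1.71 and 1.52, and Acta1, a skeletal muscle actin, by 3.04, with 5, 13 and 9 reads in IL-33/17A against 75, 72 and 84 reads in untreated libraries. No library of the IL-33/17A group reached the untreated range of any of the genes named here. Over all tested genes, the groups did not overlap in 6303 of 13280. Markers of smooth muscle cells and pericytes, a list that shares Des, Lmod1 and Myh11 with the contractile list, were lower in 6 of 6 tested and added up to 71.9 to 73.8 TPM in IL-33/17A libraries and 254 to 259 TPM in untreated ones. Their part in the contractile result was not tested.

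The promoter of Acta2 is printed because the motif CATTCC of TEAD factors, the partners of YAP, was found in 8 of 13 promoters of the contractile list (61.5%) and in 14.7% of all promoters. It was also in 3 of 6 promoters of the neutrophil chemokine list, whose genes rose, so it is not particular to contractile genes. Capitals mark the match, here on the other strand. The promoter lies at chr19:34255324-34255623, minus strand. The TEAD motif was chosen after the values were seen, and it is in 12% of promoters of tested genes. Other motifs were searched too. The CArG box was searched strictly, as CC, then only A or T, then GG. It was in 2 of 13 contractile promoters (15.4%) and 1.63% of all promoters. The promoter of Acta2 holds no match to it as it was searched, and runs that differ by a letter, such as ccctatatgg and ccttgtttgg there, were not counted. The NF-kB consensus was in 3 of 13 contractile promoters (23.1%).
Acta2: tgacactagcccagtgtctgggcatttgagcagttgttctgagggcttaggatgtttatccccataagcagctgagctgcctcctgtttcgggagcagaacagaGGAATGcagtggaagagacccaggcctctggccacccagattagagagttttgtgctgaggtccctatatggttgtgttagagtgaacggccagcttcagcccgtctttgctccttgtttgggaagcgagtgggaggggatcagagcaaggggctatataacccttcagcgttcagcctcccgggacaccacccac
The match begins 146 bases before the start.

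Targets of YAP and members of the CCN family fell in all 10 tested genes, median -0.71, and 8 of them were called with replicate 1 alone and under median-ratio scaling. Ankrd1, a muscle-associated YAP target, had 43.2, 35.4 and 36.3 TPM in IL-33/17A libraries and 191, 195 and 192 TPM in untreated libraries. Ccn2 (CTGF), a matricellular factor of fibrosis, stood at 2753, 2882 and 2600.0 TPM in IL-33/17A libraries and 4954, 4977 and 4614 TPM in untreated libraries. Ccn1, Ccn5 and Ccn3 fell by 0.62, 1.08 and 1.87. The smallest falls, of Lats2 and Ccn4, were 0.22 and 0.25, and neither was called under median-ratio scaling, with replicate 1 alone, or without IL-33/17A replicate 2 or untreated replicate 3. The ligands of TGF-beta, the factor that maintains myofibroblasts, did not move as 1 group. Tgfb3 had 47.5, 44.5 and 43.6 TPM in IL-33/17A libraries and 185, 180.1 and 188 TPM in untreated libraries, and Tgfb2 fell by 1.88, while Tgfb1 rose by 0.47. The receptors Tgfbr2 and Tgfbr1 were at -0.33 ± 0.04 and -0.15 ± 0.07 (SE), of which the first was called, and the response gene Smad7 was not called, but was higher with median-ratio scaling (0.36), with voom (0.38) and without IL-33/17A replicate 1 (0.34).

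Collagen genes were lower in 15 of 19 tested and higher in 2, with a median of -0.42 (14 and 2 with replicate 1 alone). The fibrillar Col1a1 had 4163, 5371 and 4767 TPM in IL-33/17A libraries and 6501, 6440 and 5380.4 TPM in untreated libraries, a fall that was not called under median-ratio scaling, and Col1a2 fell by 0.42. Col3a1 was not called (higher with voom, 0.17), with 1552, 1741 and 1635 TPM in IL-33/17A and 1622, 1615 and 1495 TPM in untreated libraries. The 3 chains of collagen VI fell most: Col6a3 had 46.1, 47.1 and 46.4 TPM in IL-33/17A libraries and 141, 136 and 144 TPM in untreated libraries, and Col6a1 and Col6a2 fell by 0.99 and 0.98. Col18a1 and Col5a3 rose by 0.86 and 0.82. Elastic fibre and crosslinking genes were lower in 11 of 15, among them Fbln5 by 1.27, Fbn1 by 0.83 and Loxl4 by 1.42. Lox, the crosslinking enzyme with the highest TPM, was not called (-0.03 ± 0.06, SE).

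Matrix glycoproteins and proteoglycans were 11 lower and 7 higher of 20. Small leucine-rich proteoglycans divided sharply: Ogn, Aspn, Fmod and Prelp fell by 2.52, 1.95, 1.38 and 1.02, while decorin, Dcn, had 329.5, 269.6 and 269 TPM in IL-33/17A libraries and 124, 121 and 140.1 TPM in untreated libraries. Fn1, fibronectin, and Thbs1 fell by 0.55 and 0.51, and Tnc, tenascin-C of injured matrix, rose by 0.71. The hyaluronan synthase Has1 rose by 1.27 and the hyaluronan-degrading Cemip fell by 1.41.

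Transcription factors of the lung mesenchyme divided as well. Twist2, Tbx3 and Foxf1 rose by 1.64, 1.20 and 0.93, and Osr1, Prrx2 and Tcf21 fell by 1.54, 0.84 and 0.84, the last of which was not called with replicate 1 alone. Foxf1 had 203, 225 and 221 TPM in IL-33/17A libraries and 117, 117 and 105 TPM in untreated ones. Growth factors for epithelium and vessels were 10 higher and 6 lower of 18. Among them 1 passed the filter through IL-33/17A libraries alone, which fixed its direction, and of the other 17, 9 were higher and 6 lower. Ereg, an EGF receptor ligand, had 289, 260.3 and 263 TPM in IL-33/17A libraries and 57.2, 53.5 and 59.4 TPM in untreated libraries, and Hbegf and Vegfa rose by 0.94 and 1.01. Igf1 and Edn1 fell by 1.29 and 1.57. Fgf7 and Hgf, stromal factors for alveolar epithelium, rose by 0.45 and 0.45, and Fgf10 was not called (0.00 ± 0.08, SE). Among BMP and Wnt genes the antagonist Grem1 had 2959, 2824 and 2793 TPM in IL-33/17A libraries and 2005, 2009.5 and 2020.4 TPM in untreated libraries, whereas Dkk2, Wnt2b and Sfrp1 fell by 1.32, 1.03 and 0.99. The list as a whole was 6 higher and 8 lower of 19, beside 10.9% and 28.4% over all tested genes.

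Interferon-stimulated genes tended to be lower, 16 of 24 tested with 1 higher and a median of -0.46. With replicate 1 alone 8 were called lower, and with a term for the low mitochondrial set 11, where 9.77% and 16.8% of all tested genes were called lower. Ifi44 had 6.08, 5.73 and 6.87 TPM in IL-33/17A libraries and 17.8, 17.1 and 19.2 TPM in untreated libraries, and Irf7 had 18.6, 16.4 and 18.2 TPM in IL-33/17A and 32.1, 29.4 and 36.6 TPM in untreated libraries. Rsad2 and Ifit1 fell by 0.97 and 0.91, and Gbp7 was the one member called higher (1.52 ± 0.12, SE). Irf7 and Ifit1 were not called with replicate 1 alone. Genes of antigen presentation by MHC class I were mostly not called, 3 higher and none lower of 14, with a median of -0.01 (1 and 2 with replicate 1 alone). B2m, the shared light chain, had 1134, 1090.2 and 1061 TPM in IL-33/17A libraries and 1203, 1239.8 and 1084 TPM in untreated libraries.

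Metabolic genes changed by small amounts in 1 direction. Of 22 tested genes of cholesterol and fatty acid synthesis 16 were higher and none lower, median 0.37, and 16 were called with replicate 1 alone. Mvd, an enzyme of the mevalonate pathway, rose by 1.07, and Scd2, a fatty acid desaturase, by 0.69. Glycolysis and hypoxia genes were higher in 13 of 20 and lower in none, median 0.21 (9 with replicate 1 alone), led by Egln3 (1.09) and the lactate exporter Slc16a3 (0.75, not called with replicate 1 alone). The list of unfolded protein and amino acid stress was mixed, 4 higher and 7 lower of 16, with a median of -0.11. Among its falls were amino acid stress genes that are targets of Atf4: Trib3, Chac1 and Asns changed by -1.20 ± 0.10, -1.14 ± 0.10 and -0.73 ± 0.05 (SE), while the chaperone Hspa5 rose by 0.21. Cell cycle genes were 8 higher, 8 lower and 11 not called, with a median of -0.10, that of all tested genes. With replicate 1 alone 2 were higher and 3 lower. The proliferation marker Mki67 had 52.6, 40.3 and 38.2 TPM in IL-33/17A libraries and 46.3, 52.3 and 54.2 TPM in untreated libraries and was not called, except as lower without IL-33/17A replicate 1 (-0.37).

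**Figure D4:**
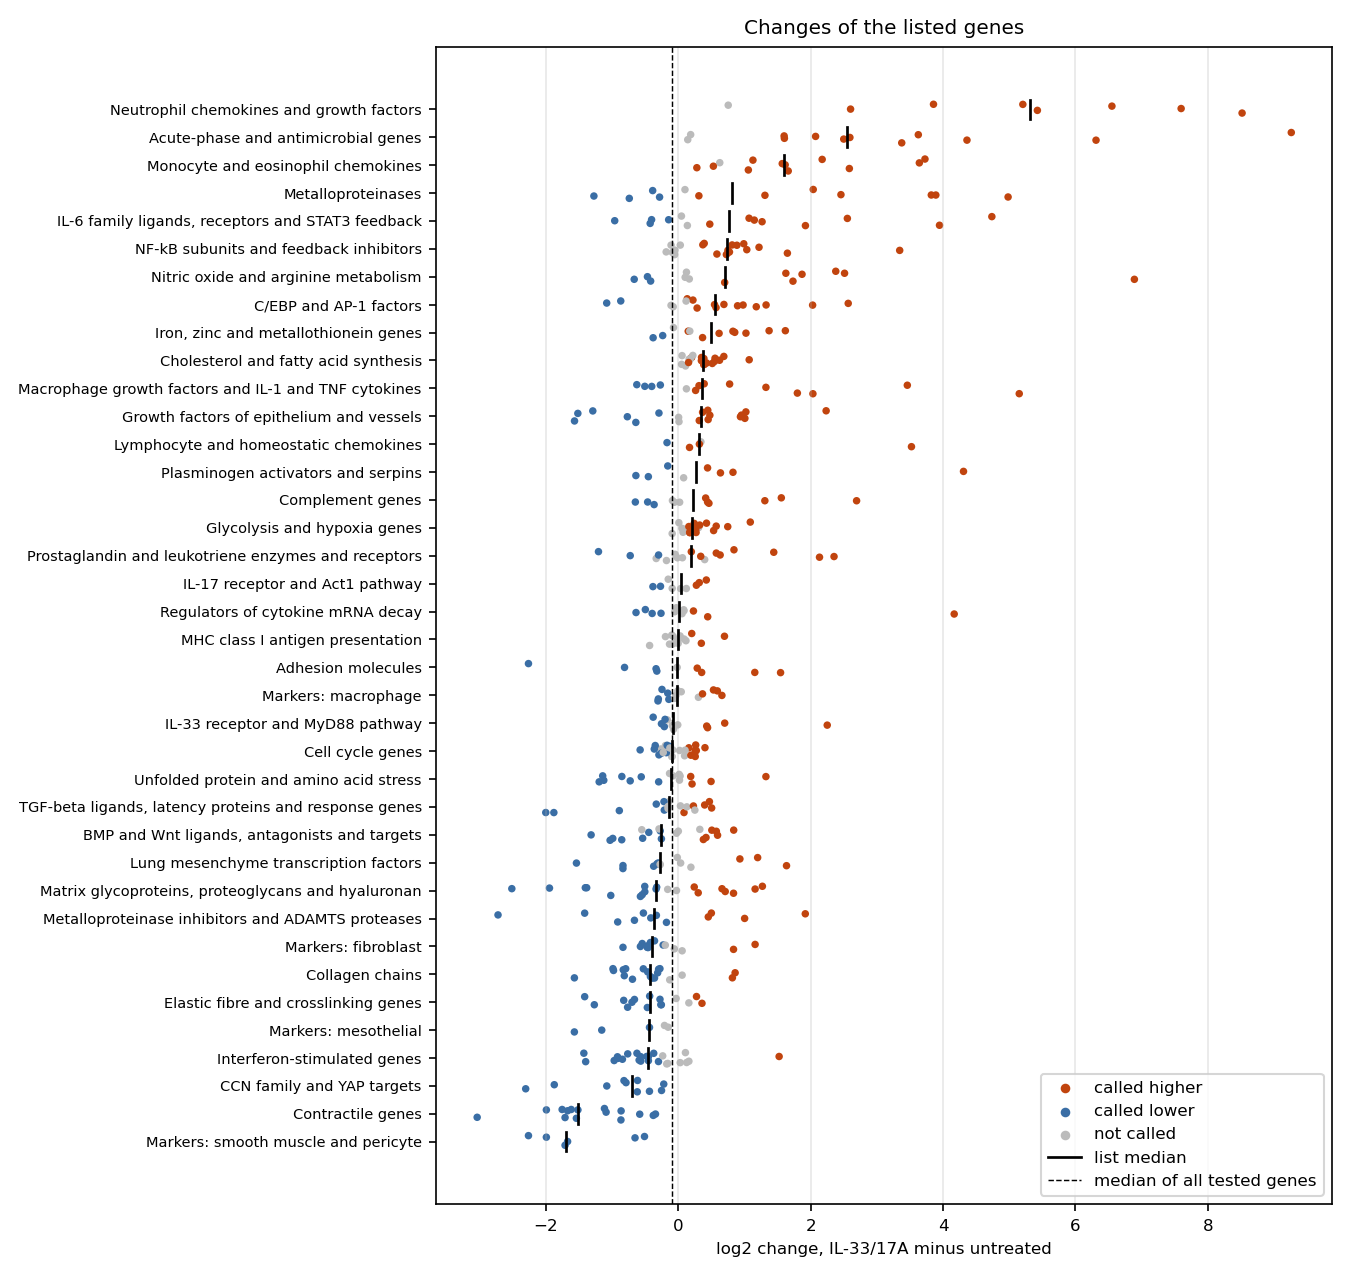
Change of each tested member (points, log2, IL-33/17A minus untreated) of the lists with at least 5 tested members, ordered by list median. Vertical strokes are list medians and the dashed line is the median of all tested genes, -0.10; neutrophil and acute-phase lists sit at the top and contractile genes, all lower, at the bottom.

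Fibroblast and macrophage marker lists moved in both directions. Of the fibroblast markers 9 were lower and 2 higher, with the mesenchymal receptor Pdgfra not called (-0.06 ± 0.08, SE). Of the macrophage markers 4 were higher and 5 lower (4 and 2 with replicate 1 alone). Cd14 and Itgam rose by 0.59 and 0.66, Cd68 and Csf1r, the receptor of Csf1, fell by 0.30 and 0.31, and C1qc was not called. The falls of Cd68 and Csf1r were not called with replicate 1 alone. Which cells carry any given change cannot be told apart in these libraries. Markers of other cell types were low: of the epithelial markers only Krt18 passed the filter, Epcam and Krt5 were listed at 0 in all untreated libraries, and the endothelial markers added up to 7.06 to 7.25 TPM in IL-33/17A and 5.31 to 5.94 TPM in untreated libraries. Neutrophil and eosinophil markers added up to 109 to 118 TPM in IL-33/17A and 24.6 to 30.2 TPM in untreated libraries, nearly all of it S100a8, while Csf3r, the G-CSF receptor of neutrophils, fell by 0.73. Mcpt8, a basophil protease, rose by 0.51. Of 5 tested mesothelial markers 3 fell: Lrrn4, Upk3b and Krt19, by 1.57, 1.16 and 0.44, of which Krt19 was not called under median-ratio scaling or without IL-33/17A replicate 2 or 3 or untreated replicate 2 or 3.

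Set against IL-33 alone, the libraries given both cytokines differed in fewer genes: 498 were higher in IL-33/17A (3.75%) and 888 lower (6.69%), in the same limma fit. This comparison shares the IL-33/17A libraries with the one above, so the values are given side by side and no overlap is drawn from them. The counts depended on single libraries: they were 975 higher and 2127 lower without IL-33/17A replicate 1, 361 and 482 without replicate 2, and 315 and 504 without replicate 3. Without IL-33 replicates 2 or 3 they were 339 and 553 or 411 and 554. With replicate 1 as the only IL-33/17A library of the comparison, 145 were higher and 168 lower.

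The 8 largest rises over IL-33 alone were Nos2, Csf3, H2ac13, Rassf10, Dll1, Camp, Zc3h12a and Cxcl1. Nos2 had 142, 123 and 122 TPM with both cytokines, 11.8, 12.5 and 11.6 TPM with IL-33 and 0.0503, 0.0862 and 0.135 TPM untreated, so its difference from IL-33 alone was 3.32 ± 0.07 (SE, adjusted p = 2.6e-11, limma). Csf3 had 113, 100.3 and 101 TPM with both, 16.1, 14.2 and 15.8 TPM with IL-33 and 0.420, 0 and 0 TPM untreated (2.69 ± 0.13 over IL-33). Zc3h12a stood at 266, 251 and 264 TPM with both, at 72.0, 72.9 and 70.7 TPM with IL-33 and at 14.7, 13.2 and 12.8 TPM untreated. In each of these genes the 3 groups did not overlap. They were picked for their large rises, so this is no separate support. How many of all tested genes separate the 3 groups was not counted. Dll1, a Notch ligand, had 12.9, 11.8 and 12.3 TPM in IL-33/17A libraries and 2.27, 1.88 and 2.65 TPM in IL-33 libraries, and Rassf10 had 8.91, 9.89 and 10.03 TPM in IL-33/17A and 1.47, 1.201 and 0.867 TPM in IL-33 libraries. H2ac13 is a histone gene with near-identical copies and its value is uncertain. Nfkbiz differed from IL-33 alone by 1.66 ± 0.04 (SE). In this comparison 7 of 8 tested neutrophil genes and 10 of 12 tested acute-phase genes were higher, among them Saa3 by 0.83 ± 0.10 and Hp by 0.70 ± 0.13 (log2, SE). The filter did not use the IL-33 libraries. Of these lists, Csf2, Csf3, Steap4, Lcn2, Saa1 and Saa2 passed it through IL-33/17A libraries alone. Nos2, Rassf10, Dll1 and Camp did so too, so the filter favoured rises of all these genes.

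The 8 largest falls against IL-33 alone were Ankrd1, Timp3, Mstn, Hsd3b6, Acta1, Alkal1, Fhl1 and Gadd45g. Alkal1 was under 1 TPM in every IL-33/17A library and passed the filter through untreated libraries alone. Ankrd1 had 43.2, 35.4 and 36.3 TPM with both cytokines, 136, 149 and 138 TPM with IL-33 and 191, 195 and 192 TPM untreated, so most of its fall lay between IL-33 alone and both cytokines. Timp3 had 59.3, 50.1 and 52.6 TPM with both and 157, 163 and 168 TPM with IL-33. Mstn, myostatin, was at 1.66, 1.51 and 1.36 TPM with both, 5.43, 6.52 and 7.53 TPM with IL-33 and 6.17, 6.87 and 6.11 TPM untreated. Csf1 had 342, 325 and 338 TPM with both and 447, 454 and 457 TPM with IL-33, a difference of -0.43 ± 0.03 (log2, SE). The 15 contractile genes were lower than with IL-33 alone in every case, and 8 of the 10 CCN and YAP genes and 11 of the 19 collagen genes were too. By contrast Cx3cr1 and Aqp5, which fell against untreated, were not called against IL-33 alone (-0.25 ± 0.08 and -0.45 ± 0.22, SE).

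**Figure D5:**
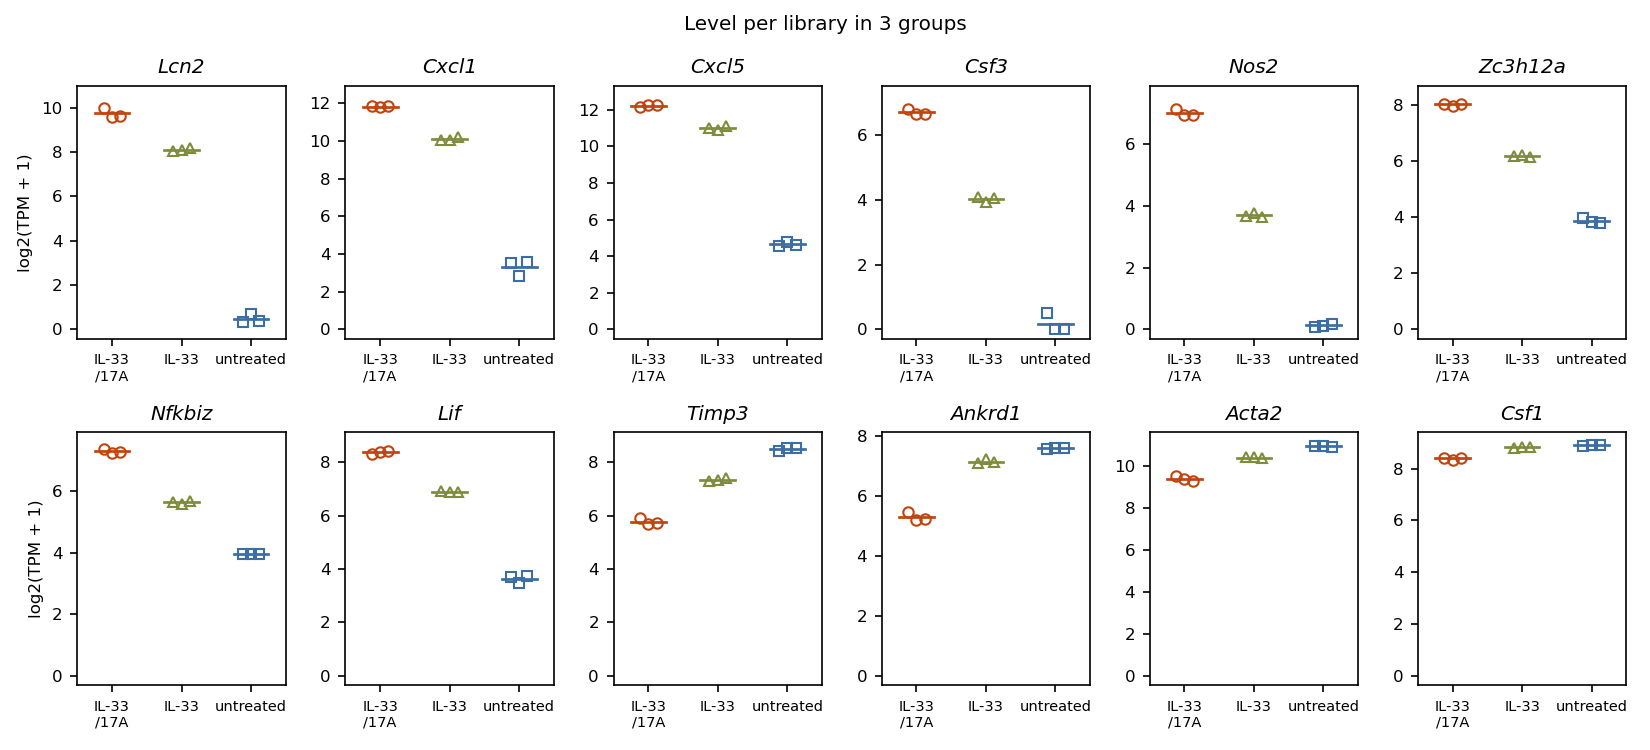
Level per library, log2(TPM + 1), of 12 genes in IL-33/17A, IL-33 and untreated cultures. Symbols are single libraries and lines group means; Nos2, Csf3 and Zc3h12a separate all 3 groups widely, and Csf1 is lower in IL-33/17A libraries than in both others.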

How the data were processed

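The deposited files hold 1 TPM value per gene and library. TPM was computed by the authors; HISAT2 and the mouse build mm10 are named in the submitters' processing notes without versions. The sources used here do not state the quantifier, a strand setting or a cut on low values (not given in the sources used here). Per the labels' protocols, RNA was isolated with an RNeasy kit and sequenced on a NovaSeq instrument. The deposited TPM times the gene span in the files gave whole reads, within 0.03, for 89.3% to 90.5% of low values of the 6 compared libraries, and depth was recovered from this. Gene coordinates are those of the files, and 17882 of 18078 identifiers have the same start and end in GENCODE release 21 for mouse.

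Genes that reached 1 TPM in 3 or more of the 6 libraries were kept, and log2(TPM + 1) was fitted with limma 3.58.1 in R 4.3.3 (trend and robust options, 1 mean per group, all 15 libraries). P-values were adjusted by Benjamini-Hochberg over the 13280 tested genes, with calls at an adjusted p under 0.05. The same fit gave IL-33/17A against IL-33. A log2 change on this scale understates that of low genes. Changes given as rose by or fell by a number are log2 differences of this fit that passed its threshold. Replicates were numbered in accession order. The script was tested on simulated data. Genes were named by rank of change (15 in each direction against untreated, 8 against IL-33, and up to 4 called members of each list with those that describe its role). The members and lists were chosen with earlier results of these data known. Other pseudocounts, filters, scalings, a mitochondrial-share term, voom on recovered reads and each library left out were tried.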

Additional observations from a re-analysis of the deposited data

How the results depend on the processing

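Against untreated, the counts of 1454 higher and 3771 lower genes became 2351 and 2288 with median-ratio scaling, 2436 and 2547 with voom on recovered reads, 883 and 1298 with only the libraries outside the low mitochondrial set, and 1224 and 2227 with a term for that set. Leaving out 1 library in turn gave 1142 to 1720 higher and 2558 to 4413 lower. Against IL-33 the counts of 498 and 888 became 899 and 882 with voom, 375 and 472 with the set term, 145 and 168 outside the set, and 245 and 297 in a fit of the compared groups only, and leaving out 1 library gave 315 to 975 higher and 482 to 2127 lower. The cause was not tested. The outside-set fits hold 1 IL-33/17A library, which is assumed to vary like the other groups, and fewer samples. Other pseudocounts, other filters and limma without its trend and robust options kept each of these 4 counts within 1.5 times. Of the 273 genes higher by 2-fold or more, 268 were also called with voom, 248 with the set term and 227 outside the set; of the 219 lower, 215, 200 and 192. Among the 30 genes with the largest changes no direction reversed, and 1, H2ac10, lost its call in 5 settings, with changes of -2.83 to -2.08. Of the genes named in the text, 6 lost a call with median-ratio scaling, 7 with voom and 16 outside the set, and 4 (Alox5ap, Mmp2, Smad7 and Steap1), 5 (these and Col3a1) and 2 (Osmr and Serpina3n) gained one; the set term added calls of Osmr, Serpina3n and Atf4. None of the named genes that were called reversed in any setting, while uncalled genes near 0, such as Alox5, B2m, Rel, Rela, Pdgfra and Lox, changed sign in some. No paired analysis was possible because the labels carry no replicate numbers that pair the groups. Depth of 10.6 to 15.1 M reads limits genes near 1 TPM on short spans, where 1 read on 1 kb is worth 0.730 to 1.13 TPM.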
